A study of Mus musculus with 10 samples.

Results

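The Ifi200 and Aim2 cluster is a row of related DNA sensor genes on mouse chromosome 1. It was represented here by 6 protein-coding genes, Aim2, Pyhin1, Ifi207, Ifi204, Mndal and Ifi203, out of 21728 protein-coding gene symbols on the autosomes and the X chromosome. Its members are the loops in which a 10 kb anchor bin lies within 100 kb of the transcription start site (TSS) of at least 1 of these genes. There were 23 such loops of 53423 in the list of untreated cells (M0), 9 of 58259 with IL-4 (M2), 16 of 67727 after IL-4 and rest (M2p), 22 of 55011 with interferon-γ (IFNG) and 21 of 66999 with interferon-γ after IL-4 priming (pIL-4 + IFNG). The rule goes by gene name and position and uses no contact value, but the genes were chosen with earlier results of these data known.

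Most PYHIN proteins pair an N-terminal pyrin domain with a HIN domain that binds DNA. AIM2 binds DNA in the cytosol and recruits the adaptor ASC (encoded by Pycard), which activates caspase-1 and the release of interleukin-1β and interleukin-18, while its Ifi200 relatives bind DNA in the nucleus and cytosol and are known as interferon-inducible genes in macrophages. In the mouse the family grew by tandem duplication, so its genes lie side by side and share much of their sequence.

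Hi-C ligates neighbouring stretches of chromatin, and each sequenced junction counts as a contact between 2 places in the genome. It was run on bone marrow-derived macrophages (BMDMs) of wild-type female C57BL/6 mice aged 2 to 3 months, differentiated with M-CSF at 20 ng/ml and treated from day 6, in 5 groups with 2 samples each. The group labelled M0[CTR], here M0, was untreated, the group M2[IL-4], here M2, received IL-4 at 20 ng/ml for 24 h, and the group M2p[pIL-4], here M2p, was washed after the same treatment and rested for 24 h. The IFNG group received interferon-γ at 20 ng/ml for 3 h, and pIL-4 + IFNG received it after IL-4 priming and rest. Each group came as 1 merged loop list, so no list has a replicate beside it and no difference between conditions was tested. A loop here is a listed pair of 10 kb bins with its number of contacts, and a pair that is not listed has an unknown number of contacts, not 0. The lists come from many cells together, so a contact in more cells and a more frequent contact in the same cells cannot be told apart. They hold no expression values, and the macrophage label was not checked against marker genes. Total contacts ranged from 2174840 in M0 to 2786962 in M2p.

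On the mm10 (GRCm38) assembly, Aim2 spans chr1:173350879-173466040 on the plus strand and Pyhin1, listed as Ifi209 in GENCODE M21, spans chr1:173630917-173647928 on the plus strand. Ifi207 (chr1:173723427-173741747), Ifi204 (chr1:173747293-173766943), Mndal (chr1:173849126-173942491) and Ifi203 (chr1:173920407-173942672) lie on the minus strand. The Ifi207 and Ifi204 TSS are 25.2 kb apart, so most of their loops are the same lines. Those of Mndal and Ifi203 are 181 bases apart, so in this annotation both genes have identical loops throughout. The 13 annotated PYHIN genes reach from 173350879 to 174031810 on chromosome 1, a length of 681 kb.

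RefSeq promoter sequences of GRCm38.p6, from 250 bases before to 50 bases after the start, were found for 5 of the 6 genes, and Ifi204 had no entry. They were searched on both strands for the core of the interferon-stimulated response element, GAAANNGAAA, and for the interferon-γ activated site, TTCNNNGAA. The sequences of Ifi207, Ifi203 and Mndal held the same 10 bases, GAAATCGAAA, between 35 and 41 bases before the start, given in capitals below. They are shown because these 3 share that run, and because Pyhin1 and Aim2, which have no match, lie in the same row of genes. Ifi203 and Mndal each had another entry, for a different start, that is not shown and lacks this run. That of Ifi203 held no match, and that of Mndal held a different match 54 bases before its start.
Ifi207, chr1:173741760-173742059, minus strand: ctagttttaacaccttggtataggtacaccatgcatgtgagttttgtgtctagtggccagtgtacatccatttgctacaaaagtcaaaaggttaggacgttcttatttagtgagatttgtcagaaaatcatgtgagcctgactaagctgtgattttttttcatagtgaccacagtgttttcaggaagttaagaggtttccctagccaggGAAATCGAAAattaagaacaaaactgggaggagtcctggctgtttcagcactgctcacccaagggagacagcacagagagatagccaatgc
Ifi203, chr1:173942443-173942742, minus strand: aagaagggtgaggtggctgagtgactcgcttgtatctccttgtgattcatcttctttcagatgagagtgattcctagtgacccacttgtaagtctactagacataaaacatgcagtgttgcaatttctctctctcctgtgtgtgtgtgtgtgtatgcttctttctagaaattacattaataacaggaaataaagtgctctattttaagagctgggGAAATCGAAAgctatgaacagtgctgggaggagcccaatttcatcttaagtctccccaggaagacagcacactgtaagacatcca
Mndal, chr1:173880138-173880437, minus strand: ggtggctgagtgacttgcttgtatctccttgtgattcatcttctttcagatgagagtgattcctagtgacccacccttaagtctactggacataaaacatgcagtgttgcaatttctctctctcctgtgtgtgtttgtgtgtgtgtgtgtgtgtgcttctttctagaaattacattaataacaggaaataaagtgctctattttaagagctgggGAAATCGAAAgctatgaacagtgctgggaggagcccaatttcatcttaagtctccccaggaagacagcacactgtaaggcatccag
Pyhin1, chr1:173630609-173630908, plus strand: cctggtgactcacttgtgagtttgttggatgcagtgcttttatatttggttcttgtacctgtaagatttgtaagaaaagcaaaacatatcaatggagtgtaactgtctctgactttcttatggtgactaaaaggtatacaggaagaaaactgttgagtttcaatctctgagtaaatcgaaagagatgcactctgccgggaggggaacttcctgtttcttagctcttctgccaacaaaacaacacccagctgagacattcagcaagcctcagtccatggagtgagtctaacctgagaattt
Aim2, chr1:173420354-173420653, plus strand: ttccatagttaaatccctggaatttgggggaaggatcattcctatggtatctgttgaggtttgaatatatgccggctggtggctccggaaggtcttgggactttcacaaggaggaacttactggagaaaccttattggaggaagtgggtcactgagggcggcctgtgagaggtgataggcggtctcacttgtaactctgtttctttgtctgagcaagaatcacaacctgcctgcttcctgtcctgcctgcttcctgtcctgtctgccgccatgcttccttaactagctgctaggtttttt

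Among the 12 PYHIN genes with an entry, 9 held GAAANNGAAA in at least 1 promoter sequence, against 3.99% of the 27025 gene symbols in that table. The run GAAATCGAAA was picked as the match most frequent in these same promoters, so its excess there was set by that choice. It was found in 7 of the 12, and in 16 of all 27025 symbols, these 7 included. The genes arose by tandem duplication, so their promoters are not separate observations. The activated site TTCNNNGAA was found in 1 of the 12, Ifi202b, against 9.55% of all symbols. The promoter of Pyhin1 resembles that of its neighbour Ifi214 closely enough to be set base against base, and the 44 bases around the run agree at 40 positions. Within the run they differ by G1T, counted from 1 at the first base of the run in Ifi214, which removes the match in Pyhin1.
Ifi214: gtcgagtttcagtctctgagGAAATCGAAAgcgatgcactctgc
Pyhin1: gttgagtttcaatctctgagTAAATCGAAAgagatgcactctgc
These matches are letters in a window of 300 bases. No binding was measured, and the absence of a match in Aim2 or Pyhin1 says nothing about sites elsewhere.

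The first comparison asked how the loops near each gene differed between the lists, and the widest difference lay at Ifi207 and Ifi204, where the lists with interferon-γ had 10 to 12 loops and the others 1 to 4. Ifi207, an Ifi200 protein of the nucleus, had 2 loops in M0, 2 in M2, 1 in M2p, 10 in IFNG and 10 in pIL-4 + IFNG. Both lists with interferon-γ lay above the other 3. How many of all genes have this order was not counted, so it cannot be read as particular to Ifi207. Ifi204, which encodes the DNA sensor p204, had 3 loops in M0, 3 in M2, 4 in M2p, 11 in IFNG and 12 in pIL-4 + IFNG. Here too the lists with interferon-γ were the highest. Of the 11 loops near either gene in IFNG, 10 lay in both windows, and in pIL-4 + IFNG 10 of 12 did, so these counts are close to being 1 observation.

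**Figure D1:**
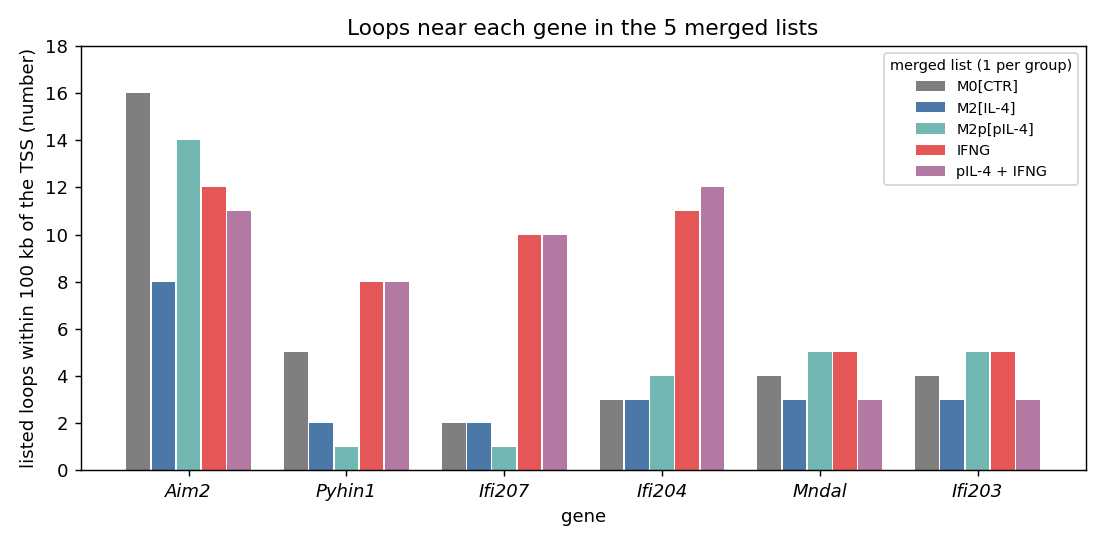
Number of listed loops (vertical axis) within 100 kb of the TSS of each gene (horizontal axis), with 1 bar for each of the 5 merged lists and no error bars, because a list has no replicate. Ifi207 and Ifi204 have 10 to 12 loops in the lists with interferon-γ and 1 to 4 in the other 3, while Aim2 is highest in M0 with 16.

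Loop numbers were scaled to the shortest list and compared as log2 ratios with 1 added to each. For IFNG against M0 the log2 ratio was 1.84 for Ifi207 and 1.55 for Ifi204, which made 2 of 6 genes at least 1.5-fold higher and none 1.5-fold lower. Over the 18010 genes with a loop in any list, 15.6% were 1.5-fold higher, and over the 4049 genes whose mean loop number lay in the range of the 6 genes (4 to 12.2) the share was 22.7%. The count of 2 is therefore near what any 6 genes of this loop number give. The size of each ratio was ranked over all genes, not over those of similar loop number, where ratios past 1.5-fold were more frequent. A ratio as high as that of Ifi207 or higher was found for 233 of 18010 genes, Ifi207 included, and for Ifi204 the number was 595.

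For pIL-4 + IFNG against M2p the log2 ratio was 2.33 for Ifi207, 2.04 for Pyhin1 and 1.35 for Ifi204, so 3 of 6 genes were 1.5-fold higher, beside 12.6% of all genes and 15.4% of those with similar loop numbers. Over all genes, 9 of 18010 had a ratio as high as Ifi207. The neighbouring Ifi208, which has the same 10 loops against 1, was among them. For Pyhin1 the number was 67 and for Ifi204 411. These comparisons of interferon-γ, without and after priming, share no list with each other. Both put Ifi207 and Ifi204 at least 1.5-fold higher, which was the case for 3.98% of all genes and 5.26% of those with similar loop numbers.

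Counting error was wide at such numbers. Without the added 1, 10 against 2 loops gave Ifi207 a 4.86-fold ratio with a 95% exact binomial interval of 1.03 to 45.6, and 10 against 1 after priming gave 10.1-fold with an interval of 1.44 to 439. For Ifi204 the ratios were 3.56 (0.941 to 19.9) and 3.03 (0.919 to 12.9). Both intervals of Ifi204 include 1, and neighbouring loops share bins, so all 4 intervals cover counting error only and are narrower than the true uncertainty.

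Keeping only the loops strongest for their span, so that all lists had the length of the shortest, left Ifi207 with 2 loops in M0, 8 in IFNG, 1 in M2p and 2 in pIL-4 + IFNG. The log2 ratio without priming was then 1.58 and that after priming 0.58, which is 1.5-fold, from 2 loops against 1. Ifi204 then had 3 loops in M0, 9 in IFNG, 2 in M2p and 3 in pIL-4 + IFNG. The pIL-4 + IFNG list is longer than that of IFNG and lost more of its loops in this step. Before this step the median strength of the Ifi207 loops was 0.780 times the median at their span in IFNG and 0.783 in pIL-4 + IFNG. Why more loops near Ifi207 and Ifi204 were lost in pIL-4 + IFNG was not tested. Counting touching bin pairs as 1 loop gave Ifi207 2, 6, 1 and 7 loops in the same order of lists, with log2 ratios of 1.19 and 1.91, and Ifi204 log2 ratios of 0.96 and 1.29.

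**Figure D2:**
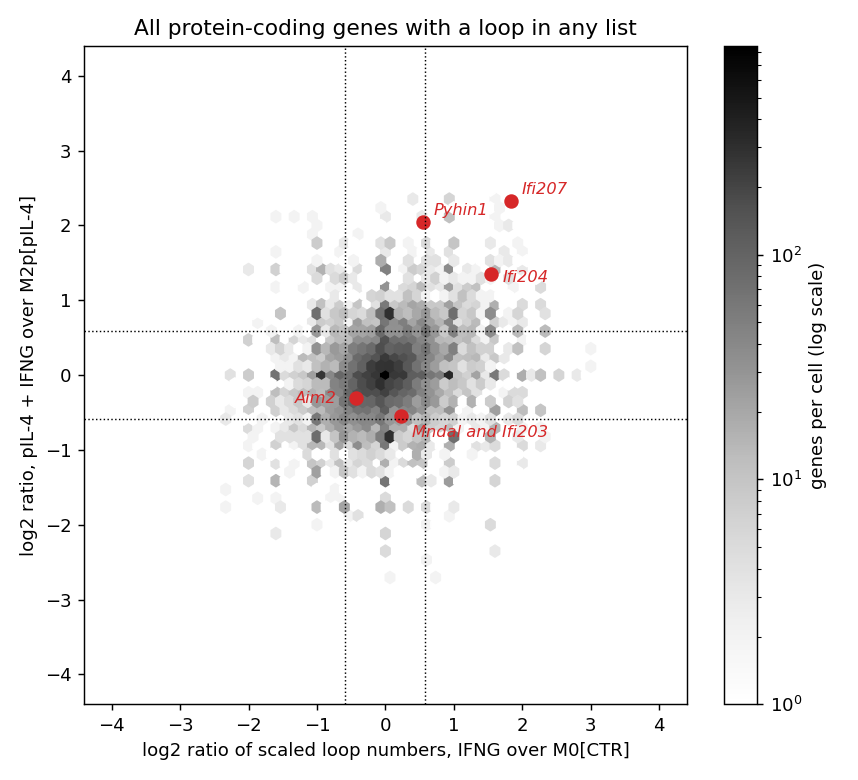
Log2 ratio of scaled loop numbers for IFNG over M0 (horizontal axis) and pIL-4 + IFNG over M2p (vertical axis) for the 18010 genes with a loop in any list, shaded by genes per cell on a log scale, with the 6 genes as points and dotted lines at 1.5-fold. Ifi207 lies at 1.84 and 2.33 and Ifi204 at 1.55 and 1.35, outside most genes on both axes, whereas Aim2, Mndal and Ifi203 lie within the dotted lines.

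Pyhin1, which lies between Aim2 and Ifi207, had 5 loops in M0, 2 in M2, 1 in M2p, 8 in IFNG and 8 in pIL-4 + IFNG. M0 lay between the other groups, and for IFNG against M0 its log2 ratio of 0.55 stayed under 1.5-fold. The median span of its loops was 730 kb in M0, 415 kb in M2, 280 kb for the single loop in M2p, 230 kb in IFNG and 245 kb in pIL-4 + IFNG.

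Mndal and Ifi203, Ifi200 proteins of the nucleus, shared 4 loops in M0, 3 in M2, 5 in M2p, 5 in IFNG and 3 in pIL-4 + IFNG. Lists with and without interferon-γ overlapped. The ratio of pIL-4 + IFNG to IFNG, −0.79 on the log2 scale, was the only one of the 6 comparisons in which either gene was past 1.5-fold, and 10.0% of all genes and 11.6% of those with similar loop numbers were 1.5-fold lower there. It was made of 3 against 5 loops. Their loop with the most contacts for its span ran from chr1:173420001-173430000 in Aim2 to chr1:174040001-174050000 (Olfr433 and Olfr432), with 19 contacts in M2 where the median at that span was 14.

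Aim2, the sensor that starts the inflammasome, had 16 loops in M0, 8 in M2, 14 in M2p, 12 in IFNG and 11 in pIL-4 + IFNG. Both lists with interferon-γ lay between M2 and M0. M2 was the lowest, with a log2 ratio of −1.03 to M0. Pyhin1 was lower too in that comparison, at −1.08 from 2 against 5 loops, so 2 of 6 genes were 1.5-fold lower where 12.6% of all genes and 15.8% of those with similar loop numbers were. None was 1.5-fold higher, beside 14.5% of all genes and 19.8% of those with similar loop numbers. Near any of the 6 genes M2 had 9 loops and M0 23, a log2 ratio of −1.38. Its 95% interval without the added 1, −2.77 to −0.31, lay below 0 and compares these lists, not the conditions.

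In M2p, after IL-4 was washed out, Pyhin1 and Ifi207 were 1.5-fold lower than in M0 with 1 loop each, 2 of 6 genes where 8.86% of all genes and 9.43% of those with similar loop numbers were. None was 1.5-fold higher, beside 15.5% and 19.1%. The same loop was the single one of both genes, and the other 4 genes stayed within 1.5-fold. Against M2 the same 2 genes were 1.5-fold lower, from 1 against 2 loops, beside 10.5% of all genes and 12.7% of those with similar loop numbers, and none was higher, beside 15.0% and 19.7%. The other gene numbers of M2p were 4 for Ifi204, 5 for Mndal and Ifi203 and 14 for Aim2, none of them past 1.5-fold in either comparison.

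The start of Aim2 depends on the annotation. Its GENCODE gene begins 69725 bases before the RefSeq start, which lies at 173420604. Around the RefSeq start Aim2 had 19 loops in M0, 14 in M2, 19 in M2p, 20 in IFNG and 21 in pIL-4 + IFNG, so M2 was again the lowest and the other 4 lists differed by at most 2 loops. The log2 ratio of M2 to M0 was then −0.53, under 1.5-fold, as it was with touching bin pairs merged (−0.56), and near any of the 6 genes there were 15 loops against 24 (−0.76). Mndal took the place of Aim2 among the genes 1.5-fold lower at the RefSeq starts. The RefSeq start of Mndal lies 62304 bases from that of GENCODE, inside the gene, and had 2 loops in M0, 1 in M2, 5 in M2p, 4 in IFNG and 3 in pIL-4 + IFNG.

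A second comparison asked where the loops led. In M0 10 of the 23 loops joined Aim2 to bins more than 500 kb left of the cluster, between 172500001 and 172640000. These bins hold Tagln2 (an actin-binding protein), Cfap45 (a cilium protein), Vsig8, Slamf8 (a SLAM family receptor of myeloid cells) and Dusp23 (a phosphatase), or no protein-coding gene. There was 1 such loop in M2, 1 in M2p, 4 in IFNG and 2 in pIL-4 + IFNG. Among those of M0 was the loop with the most contacts for its span of all 72 bin pairs, chr1:172500001-172510000 to chr1:173420001-173430000, from Tagln2 to Aim2. It had 14 contacts in M0 (95% exact Poisson interval 7.65 to 23.5) where the median at that span was 10.

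To the right, loops that started in the cluster mostly reached bins with olfactory receptor genes or with no protein-coding gene. They numbered 8 in M0, 5 in M2, 5 in M2p, 2 in IFNG and 2 in pIL-4 + IFNG. Loops with both anchors inside the cluster numbered 4, 3, 6, 12 and 11 in the same order. The loops near the 6 genes were accordingly shorter with interferon-γ, with a median span of 770 kb in M0, 600 kb in M2, 415 kb in M2p, 255 kb in IFNG and 230 kb in pIL-4 + IFNG. Over the whole lists the median span lay between 160 and 180 kb.

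**Figure D3:**
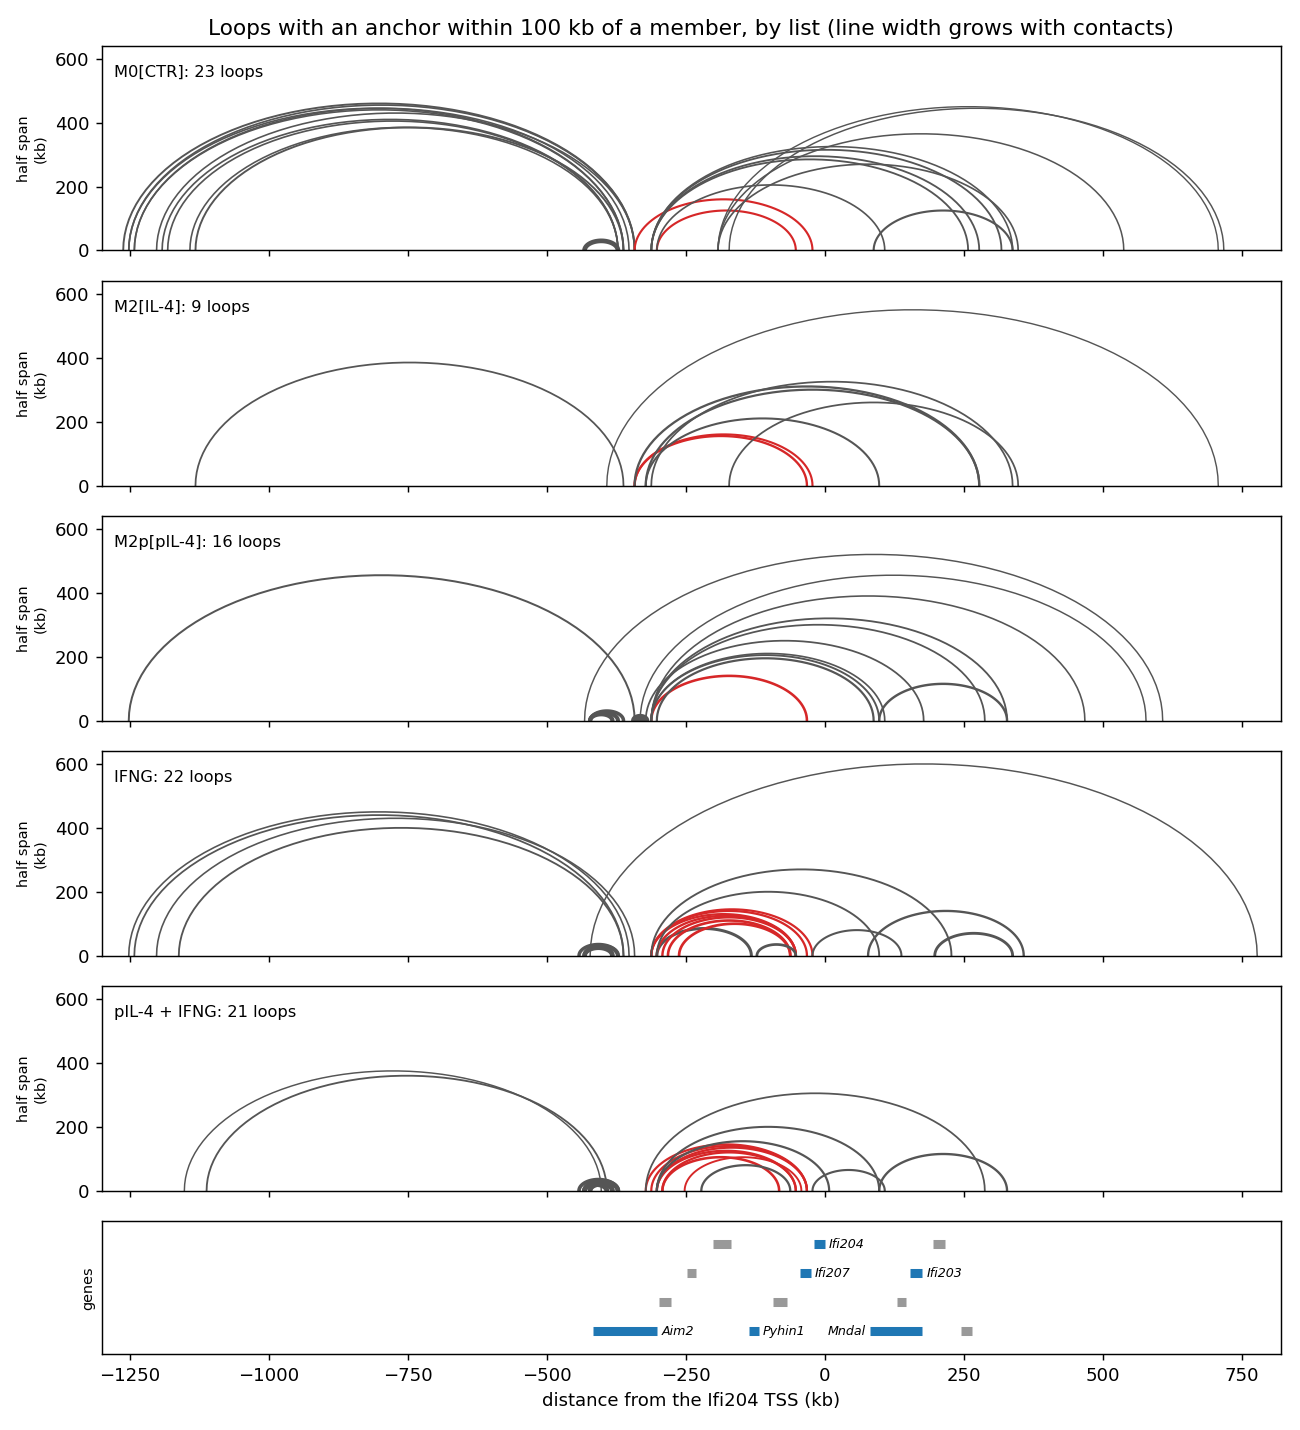
Loops with an anchor within 100 kb of 1 of the 6 genes, drawn as arcs in 1 panel for each list, against the distance from the Ifi204 TSS in kb; arc height grows with the span, line width grows with contacts, and red marks loops that join Aim2, Ifi206 or Ifi214 to the stretch from Ifi208 to Ifi204. The bottom panel shows the 6 genes in blue and the other 7 PYHIN genes in grey. Red arcs number 7 in each list with interferon-γ and 1 or 2 in the others, and long arcs to the left are most frequent in M0.

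Inside the cluster 7 of the 12 loops in IFNG and 7 of the 11 in pIL-4 + IFNG had 1 course. They joined the stretch from Aim2 to Ifi214 (chr1:173350879-173535957) to the stretch from Ifi208 to Ifi204 (chr1:173673675-173766943). This grouping was made after the values were seen. There were 2 such loops with 34 contacts in M0, 2 with 37 in M2, 1 with 23 in M2p, 7 with 146 in IFNG and 7 with 131 in pIL-4 + IFNG. Each loop alone was weak, with 14 to 25 contacts, and in both lists with interferon-γ the median of the 7 was 0.783 times the usual count at that distance, the median of the list.

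The bin chr1:173710001-173720000, between Ifi208 and Ifi207, anchored 4 loops in IFNG, 2 in pIL-4 + IFNG, 1 in M0 and 0 in M2 and M2p. Its partner chr1:173460001-173470000, where Aim2 ends and which also holds part of Ifi206, anchored 5 loops in IFNG and 6 in pIL-4 + IFNG, and 1 or 2 in each of the other 3. The loop between these bins had 17 contacts in M0, 20 in IFNG and 20 in pIL-4 + IFNG, and was not listed in the others. The loop from chr1:173450001-173460000 to chr1:173730001-173740000, from the last part of Aim2 to the body of Ifi207, had 23 contacts in M2p, 19 in IFNG and 18 in pIL-4 + IFNG. In M2p it had as many contacts as the median at its span, and no loop near Pyhin1, Ifi207 or Ifi204 had more for its span.

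Most of these loops lay near a loop of M0. Of the 7 in IFNG, 5 lay within 25 kb at both anchors of a loop in M0, and of the 7 in pIL-4 + IFNG also 5 did. M0 listed only 2 loops of this course, so neighbouring bin pairs shared a counterpart and these matches are not separate. Over the whole lists 87.0% of the IFNG loops and 84.9% of the pIL-4 + IFNG loops had such a match in M0. With touching bin pairs merged, the 7 loops became 3 in IFNG and 4 in pIL-4 + IFNG, against 2 in M0, 1 in M2 and 1 in M2p. A listed loop of 200 to 320 kb had at least 9 to 11 contacts, with a 5th percentile of 17 in all 5 lists, so these loops lay close to the lower end of what was listed.

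No loop in any list joined the TSS bins of a pair of these genes. The TSS bin of Ifi207 anchored 1 loop in M0, 1 in M2, 2 in IFNG and 1 in pIL-4 + IFNG. That of Pyhin1 anchored 1 loop, in IFNG, with 29 contacts, leading to the bin where Aim2 ends. The bin of Mndal and Ifi203 anchored 1 loop, in M2p, with 12 contacts, and those of Ifi204 and of the GENCODE start of Aim2 anchored none.

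Another set of short loops lay at the left edge, between Cadm3 and Ackr1, a cell adhesion molecule and the atypical chemokine receptor, and the first part of Aim2. The loop from chr1:173330001-173340000 to chr1:173390001-173400000 had 53 contacts in M0, 45 in IFNG and 51 in pIL-4 + IFNG. In M2p 3 loops from the next bin, chr1:173340001-173350000, had 36 to 47 contacts, and M2 listed no loop there. Both anchors of the first loop hold a match to the CTCF consensus, searched as 14 bases with at most 1 mismatch on both strands and shown because CTCF is the protein known to hold many loop anchors. The matches, in capitals and read on their own strand, point towards each other.
Left anchor, chr1:173339701-173339730, plus strand, 1 mismatch: tccttccaCCACCAGATGTCAGcactggca
Right anchor, chr1:173398790-173398819, minus strand, 0 mismatches: caaggattCCAGCAGGTGGCGCtctgaacc
Of the 64 anchor bins of loops near the 6 genes 18 held such a match, beside 19.5% of the 19155 bins of chromosome 1 without unsequenced bases. Inside the cluster the share was lower: 6 of the 38 bins that anchored any loop held one (15.8%). Among the 30 that anchored a loop in a list with interferon-γ it was 4 (13.3%). The 7 bins from the end of Ifi208 to the Ifi207 start held none. CTCF binding was not measured.

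The third comparison asked whether contacts changed at bin pairs listed in both lists. Few pairs allowed it. Of the 72 distinct bin pairs near the 6 genes, 56 were listed in 1 list, 13 in 2, 3 in 3 and none in 4 or 5, so that 77.8% were in a single list, against 55.5% of the 153263 bin pairs of all lists. In each comparison 0 to 6 of the genes had a shared pair, with 1 to 4 pairs each.

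For IFNG against M0 Aim2 had 67 and 73 contacts at 3 shared pairs, and after scaling the log2 ratio was −0.17 (95% interval −0.67 to 0.33). Ifi207, Ifi204 and Pyhin1 had the same single pair, with 20 and 17 contacts and a log2 ratio of 0.19 (−0.82 to 1.21). For pIL-4 + IFNG against IFNG, where all 6 genes had a shared pair, Aim2 had 156 and 152 contacts at 4 pairs (0.06, −0.27 to 0.39) and Ifi204 73 and 74 at 4 pairs (0.00, −0.49 to 0.49). None of the genes passed a two-sided exact binomial test in any of the 6 comparisons, with all adjusted p at 1 after Benjamini-Hochberg adjustment over all genes tested, and none had an unadjusted p under 0.05. Of all genes tested, 0.0151% passed for M2 against M0, 0.0913% for IFNG against M0 and 0.0216% for pIL-4 + IFNG against M2p. These intervals leave room for changes well over 1.5-fold at the single pair of Ifi207, so a change in contacts there was not detectable at this depth.

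The same test per anchor bin called none of the 7 to 17 anchors of the locus that a comparison could use, or 5 for M2p against M2. Over all anchors 0.0187% passed for IFNG against M0 and none elsewhere, where 349 to 461 anchors had an unadjusted p under 0.05 by this exact test. The lowest p was 0.279, at chr1:172520001-172530000 (Cfap45) for IFNG against M0, with 148 and 125 contacts (log2 ratio 0.20, −0.15 to 0.56, adjusted p = 1 by the exact binomial test). The next were both anchors of the loop from Ackr1 and Cadm3 to Aim2 in the same comparison, with 45 and 53 contacts (−0.28, −0.89 to 0.32), and its Aim2 anchor for pIL-4 + IFNG against IFNG, with 89 and 80 contacts (0.18, −0.28 to 0.63). Whether priming changed the effect of interferon-γ on contacts could not be tested for any of the 6 genes, because no bin pair near them was listed in all 4 lists that test needs. On unscaled loop numbers, pIL-4 + IFNG and IFNG had 10 and 10 for Ifi207 and 12 and 11 for Ifi204. With equal list lengths the numbers were 2 and 8 for Ifi207 and 3 and 9 for Ifi204, so the comparison depended on this setting.

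It was also counted how many loops near the 6 genes were found again in another list. Within 25 kb at both anchors, 14 of 22 loops of IFNG had a match in M0 (63.6%, 95% Wilson interval 43.0 to 80.3), against 87.0% of the whole list. Of the pIL-4 + IFNG loops 14 of 21 matched M2p (66.7%, 45.4 to 82.8), against 88.6%. For M2 7 of 9 matched M0 (77.8%, 45.3 to 93.7, against 86.4%), and for M2p 11 of 16 (68.8%, 44.4 to 85.8, against 85.9%). In the first 2 the interval lay below the whole-list share, in M2 it contained it, and in M2p it ended just under it. Neighbouring bin pairs can share a counterpart, so the loops are not separate trials. The intervals are therefore narrower than the true uncertainty and do not test these differences. Of the M2p loops 5 of 16 were found in M2 (31.3%, 14.2 to 55.6), against 87.1%. M2, with its 9 loops, held a match for 1 of the 22 loops of IFNG and 3 of the 21 of pIL-4 + IFNG. With 50 kb allowed, the shares came closer to those of the whole lists for pIL-4 + IFNG in M0, at 90.5% against 92.7%, and all 21 of its loops were found in IFNG, against 94.0%. Loops near the 6 genes were longer than those of the lists, as given above, and the part of span in these shares was not tested.

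Reads from duplicated sequence cannot be placed with certainty, so uniqueness was measured along the cluster. In each 10 kb bin the share of 31-base words that occur once in the assembled chromosomes of GRCm38 was counted on both strands. Its median was 58.9% over the 69 bins of the cluster (7.21 to 99.6%), against 91.7% over 379 other bins spread along chromosome 1. Bins of Aim2 were among the most unique, with 85.8% or more from its start to its end.

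From Ifi206 on the share fell. The 38 bins of the cluster that anchored any loop had a median of 63.9%, and the 31 that anchored none 52.8%. The stretch from the end of Ifi208 to the Ifi207 start, which anchored most of these loops with interferon-γ, had a median of 80.5% over 7 bins, against 41.2% over the 8 bins from the Ifi204 start to the bin before Mndal. The latter stretch anchored 1 loop, in pIL-4 + IFNG. The median number of MboI sites (GATC), where the chromatin was cut, was 26 per bin in the cluster and 25 elsewhere. Uniqueness was measured on the assembly, so a bin has the same value in every list. Its part in the number of loops, and in the differences between lists, was not tested.

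**Figure D4:**
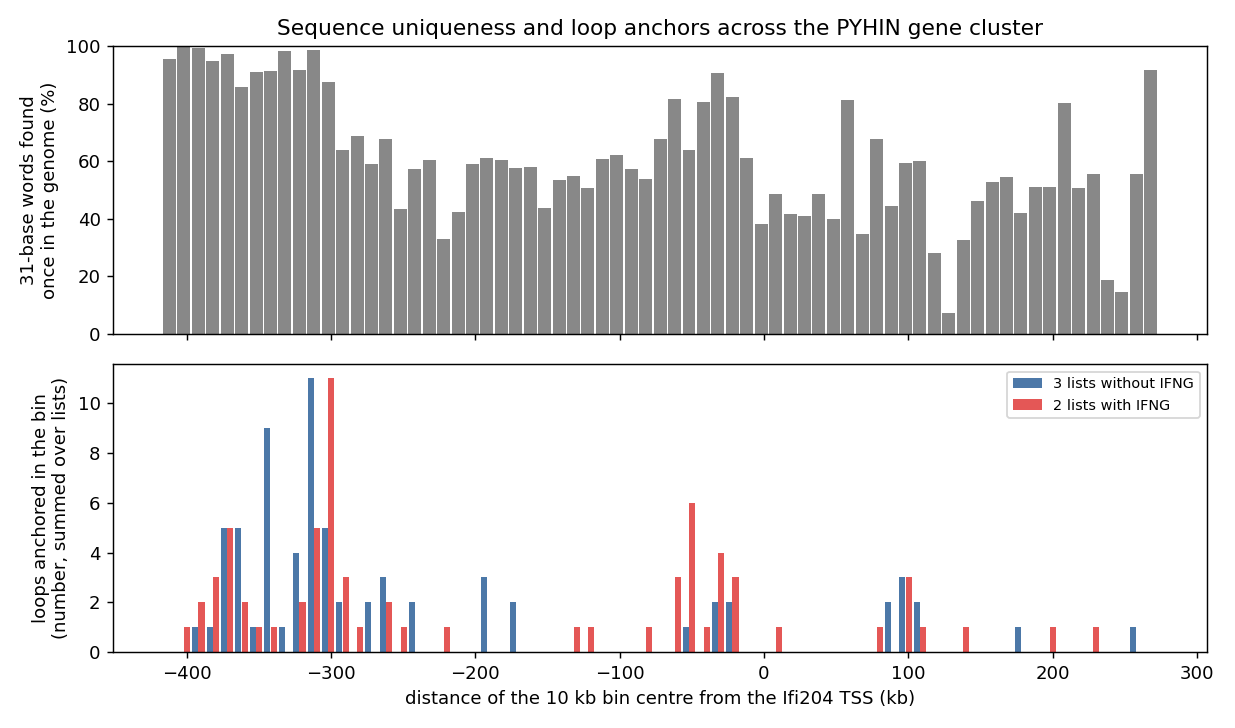
Share of 31-base words found once in the genome (top, percent) and number of loops anchored in the bin (bottom, summed over 3 lists without and 2 lists with interferon-γ) for the 69 bins of 10 kb across the PYHIN cluster, against the distance of the bin centre from the Ifi204 TSS in kb. The 7 bins from the end of Ifi208 to the Ifi207 start, left of the TSS, have a median of 80.5% unique words and hold more anchors with interferon-γ than without, although the first group sums fewer lists.

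The windows of the other 7 PYHIN genes overlap those of the 6. Ifi208, between Pyhin1 and Ifi207, had 6 loops in M0, 3 in M2, 1 in M2p, 10 in IFNG and 10 in pIL-4 + IFNG. For IFNG against M0 2 of 7 were 1.5-fold higher, Ifi208 (log2 ratio 0.61) and Ifi211 (0.96, from 5 against 2 loops), and 1 was lower, Ifi213 (−0.62), beside 15.6% higher and 13.4% lower of all genes. For pIL-4 + IFNG against M2p Ifi208 was higher (2.33) and Ifi205 lower (−0.76), beside 12.6% and 11.6% of all genes. The median log2 ratio was 0.08 and 0.01, beside 0.39 and 0.52 for the 6 genes and 0.00 and 0.01 for all genes. In M2p against M0 4 of the 7 were 1.5-fold lower, with the lowest ratio for Ifi208 (−1.97), and Ifi211 was higher (0.72), beside 8.86% lower and 15.5% higher of all genes. In M2 against M0 3 of 7 were lower, Ifi206 (−0.79), Ifi208 (−0.90) and Ifi211 (−0.65), and none higher, beside 12.6% and 14.5%. In M2p the ratios past 1.5-fold also included Ifi206 (−0.74), Ifi213 (−0.83) and Ifi202b (−0.63) against M0, and Ifi211 (1.37), Ifi208 (−1.07) and Ifi205 (−0.69) against M2. For pIL-4 + IFNG against IFNG 3 of 7 were lower, Ifi202b (−1.44), Ifi211 and Ifi205 (both −0.79), beside 10.0% of all genes.

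Other genes of DNA sensing and the inflammasome lie outside the cluster, and 22 of 24 listed symbols were found in the annotation, 20 of them with a loop. For IFNG against M0 2 of 20 were 1.5-fold higher, Samhd1, a dNTPase that limits viral DNA synthesis (23 against 11 loops, log2 ratio 0.96), and Il18, the cytokine matured by caspase-1 (10 against 4, 1.10). Nlrc4, an inflammasome receptor for bacterial proteins, was lower (4 against 10, −1.17). Of all genes 15.6% were higher and 13.4% lower, so these counts of 20 are at or under the share of any genes. For pIL-4 + IFNG against M2p 3 were higher: Tmem173, which encodes the adaptor STING (9 against 2, 1.67), Samhd1 (36 against 12, 1.51) and Nlrc4 (6 against 2, 1.17). None was lower, and the share of all genes was 12.6% higher, close to 3 of 20. Samhd1 was the only one of the list 1.5-fold higher in both, and Nlrc4 was lower without priming and higher after it, a difference that was not tested.

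With IL-4 alone the same list gave 1 gene higher and 3 lower against M0, beside 14.5% and 12.6% of all genes. Zbp1, a sensor of Z-form nucleic acids, was the one that was higher, with 47 against 21 loops (log2 ratio 1.00), and Nlrc4 had the lowest ratio (−1.55, 3 against 10). Nlrp1b, an inflammasome sensor, was lower as well (−0.84, 5 against 9), and Cgas went from 1 loop to 0. Cgas, the cytosolic DNA sensor that signals through STING, had 1, 0, 4, 2 and 4 loops in the order of the lists, and Pycard, the ASC adaptor, 37, 52, 60, 38 and 48. In M2p against M0 1 gene was higher, Cgas (log2 ratio 1.05), and 1 lower, Nlrc4 (−2.09), beside 15.5% and 8.86% of all genes. In M2p against M2 3 were higher, Cgas (2.05, from 4 loops against 0), Il18 (0.80) and Nlrp1b (0.67), beside 15.0%. For pIL-4 + IFNG against IFNG 2 were higher, Tmem173 (1.47) and Ifnb1, which encodes interferon-β (0.64), a smaller share of the list than of all genes. Casp1 and Casp4, which encode inflammatory caspases, had no listed loop within 100 kb in any list. The median log2 ratio of the list was −0.01 for IFNG against M0, beside 0.00 over all genes.

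Across the 5 lists, the genes whose scaled loop numbers followed the summed loops of the cluster most closely were Cd3eap and Ppp1r13l, neighbours on chromosome 7 with the same loops (Pearson r = 0.999), Itgb5 on chromosome 16 (0.998), and Cebpz and Ndufaf7, neighbours on chromosome 17 (0.996). These are the highest values of 9722 genes compared over only 5 points, and 281 of these genes were over 0.9. Their lowest number was also in M2, with 83 loops for Cd3eap, 35 for Itgb5 and 18 for Cebpz. That follows from choosing them by this correlation and is not a separate finding.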

How the data were processed

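Hi-C lists of 5 groups, each merging 2 samples, were read. In each line the authors deposited a pair of 10 kb bins (mm10) with the count of contacts between them, in whole numbers and without apparent normalization. The submitters' processing notes name FastQC, Bowtie2, HiC-Pro, Juicer and HOMER, without versions, and the study's methods name nf-core/hic 2.0.0. These methods describe loop calls by HICCUPS at 25 kb, which the 10 kb bins of the lists do not match, so the caller and threshold behind the lists are uncertain. No library depth was used, and list totals are not depths. A mitochondrial line (1 per list) was left out. Genes and TSS were from GENCODE M21. Pyhin1 was matched through its RefSeq synonym Ifi209.

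Loops within 100 kb of a TSS were counted, scaled to the shortest list and compared with a pseudocount of 1. A gene was called at 1.5-fold, without a test. Contacts at bin pairs shared by a pair of lists were compared by a two-sided exact binomial test against the share over all shared pairs, with Benjamini-Hochberg adjustment with scipy 1.17.1 under Python 3.11.15. Such p-values compare lists, not conditions. The tests were also run on simulated data. Those results are not given here and say nothing about what could be detected at this locus. Named were the 6 genes, list genes past 1.5-fold, the strongest loop of each gene, the lowest-p anchors and the 5 most similar genes. The genes, gene lists and block of loops were chosen with earlier results of these data known. Promoter and genome sequences were from RefSeq GRCm38.p6.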

Additional observations from a re-analysis of the deposited data

How the results depend on the processing

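No paired analysis was possible because each list merges both replicates of a group, and for the same reason no replicate was left out. Of 567 alternative values for 100 results, 503 stayed within 1.5 times the count or within the counting interval, 64 did not, and no called ratio changed sign. Without scaling, M2p had 3 genes of the cluster higher than M2 (0 before), and pIL-4 + IFNG had 2 lower than M2p (0 before). For the other PYHIN genes the lower counts became 2 and 1 for M2p against M0 and M2 and 3 for pIL-4 + IFNG against M2p, and the DNA sensing genes had 6 higher in M2p against M0 and 4 in pIL-4 + IFNG against IFNG. With a 50 kb window the genes of the cluster gave 1 lower in M2 and 2 higher and 4 lower in M2p against M0, 2 higher in M2p against M2, 4 higher in IFNG against M0, and 2 lower in pIL-4 + IFNG against M2p. In that window the other PYHIN genes moved to 2 in 3 counts, the DNA sensing genes to 3 higher in M2 and in M2p against M0, and partner bins outside the cluster fell from 16 to 8 in M0, 5 to 3 in M2 and 8 to 3 in M2p. A pseudocount of 0.5 gave 2 genes of the cluster, and 3 other PYHIN genes, lower in pIL-4 + IFNG against M2p, and 2 DNA sensing genes lower in M2p against M2. Merging touching bin pairs gave 1 gene of the cluster lower in M2p against M2 and 1 in pIL-4 + IFNG against M2p. It moved 4 counts of the other PYHIN genes by 1 each (to 0, 1, 1 and 2), and 8 counts of the DNA sensing genes, to 0 higher in M2, M2p and IFNG against M0 and to 6, 6 and 3 lower there, with 3 lower in M2p against M2 and 2 in pIL-4 + IFNG against IFNG. Without adjacent-bin loops, DNA sensing genes gave 2 higher in M2 and in M2p against M0 and 1 lower in pIL-4 + IFNG against M2p. With equal list lengths 5 genes of the cluster were lower in M2p against M0 and against M2, 1 was higher in pIL-4 + IFNG against M2p, where the log2 ratio of Pyhin1 was 0, and 6 were lower in pIL-4 + IFNG against IFNG, where that of Pyhin1 was −2. The other PYHIN genes then gave 7 lower in M2p against M0, 5 lower against M2 and 7 lower in pIL-4 + IFNG against IFNG, with 0 higher in both comparisons of M2p, 2 higher in pIL-4 + IFNG against M2p and 1 higher in IFNG against M0, and the DNA sensing genes 2 lower in M2p against M2 and in pIL-4 + IFNG against IFNG. The RefSeq start sites, chosen after seeing the data, gave 1 gene higher in M2p against M0 and against M2 and 1 lower in pIL-4 + IFNG against IFNG. Requiring the same bins, the matches in M0 fell to 33.3% for M2, 6.25% for M2p, 18.2% for IFNG and 9.52% for pIL-4 + IFNG, and within 50 kb the last was 90.5%. No share of all genes past 1.5-fold stands beside the counts at these other settings, so none of them can be read as particular to the cluster. The causes of these shifts were not tested beyond what each setting removes, and small loop numbers limit every ratio.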
